A study of Mus musculus with 8 samples.

Results

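RNA levels were compared between cystic kidney cells from mice given the CREB inhibitor 666-15 and the same kind of cells from mice given vehicle. The comparison took 4 of the 8 libraries of the study, 2 with inhibitor and 2 with vehicle, and covered every gene: 17440 of the 55304 genes in the deposited table had enough counts to be tested. All cells were freshly isolated from mouse kidney by their binding of the lectin DBA (from Dolichos biflorus), which enriches for collecting duct epithelium. The 4 libraries came from mice whose genotype is labelled ADPKD, the abbreviation of autosomal dominant polycystic kidney disease. The sources used here do not name the altered gene, the allele or the strain. Inhibitor-treated mice received 666-15 at 5 mg/kg daily for 5 days followed by 2 days without dosing, from postnatal day 11 and over 3 weeks, and the vehicle group received DMSO. The other 4 libraries came from wild-type (WT) mice, 2 with vehicle and 2 with the same inhibitor schedule, and were used here to share the estimate of spread and for 1 contrast between genotypes. Nothing in the labels says whether replicate libraries stem from different animals, so p-values measure the spread between these libraries, which may be technical. The 2 WT inhibitor libraries are an exception, since they differed in sex, as given below, and so cannot stem from the same animals. The spread of that mixed pair enters the shared estimate.

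CREB is a transcription factor that is switched on when cyclic AMP activates protein kinase A, which phosphorylates it and lets it recruit the coactivators CBP and p300. It binds the cAMP response element (CRE), an 8-base palindrome, often close to the start of its target genes. In polycystic kidney disease cyclic AMP is raised in the tubule epithelium and is known to promote proliferation and fluid secretion into cysts, and 666-15 was developed to block transcription driven by CREB. RNA levels do not measure how active the CREB protein was in these cells.

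The vehicle libraries held 19702638 and 18877518 counts and the inhibitor libraries 15750372 and 15552406, so depth differed with treatment, and its part in the differences below was not tested. Log2 levels of the libraries of a group correlated across genes at 0.980 with vehicle and 0.986 with inhibitor. None of the 4 ADPKD libraries had more than 8 counts of Xist, the RNA made from the inactive X chromosome of females, and all had at least 2642 counts of the Y-linked gene Ddx3y. Levels are given below as CPM (counts scaled to the same library size), in the order replicate 1 and replicate 2. Log2 fold changes are inhibitor minus vehicle ± standard error of the edgeR fit, and a gene is called changed at an adjusted p below 0.05 over all genes tested.

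Cells of both ADPKD groups carried the epithelial and collecting duct markers that DBA selection should bring. Cdh1, which encodes the epithelial adhesion protein E-cadherin, was at 2169 and 2256 CPM with vehicle and 3344 and 3617 CPM with inhibitor (log2 fold change 0.65 ± 0.09, adjusted p = 1.19e-04). Aqp2, the water channel of principal cells, was at 613 and 489 CPM with vehicle and 372 and 565 CPM with inhibitor, ranges that overlap (log2 fold change -0.23 ± 0.29, adjusted p = 0.567). Markers of other cells were present as well: the 20 endothelial markers together held 0.157% and 0.194% of counts with vehicle and 0.0545% and 0.0416% with inhibitor. The 26 proximal tubule markers held 0.0251% and 0.0338% with vehicle and 0.0670% and 0.0667% with inhibitor, against 2.30% and 2.01% in vehicle-treated WT libraries. In bulk samples a change in the number of cells of a type and a change in RNA per cell cannot be told apart, and the part of such shifts in the other results was not tested.

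Of the 17440 genes tested, 7224 (41.4%) were called, 3891 of them higher (22.3%) and 3333 lower (19.1%) with the inhibitor, and the median log2 fold change over all genes was 0.02. At a minimum of 2-fold the balance was the other way, with 1537 higher and 1681 lower. Leaving out inhibitor replicate 2 brought the number of calls down to 4783. Levels did not overlap between the groups for 12495 genes (71.6%), which with 2 libraries a group is a weak criterion.

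Direction depended on the base composition of the transcript. Among the 2157 genes whose longest annotated transcript has the lowest GC content (25.6% to 41.9%), 38.1% rose and 5.05% fell with the inhibitor, and the median log2 fold change was 0.41. Among the 2157 with the highest GC content (57.0% to 86.2%), 7.09% rose and 40.4% fell, with a median of -0.48. Both replicates of each ADPKD group showed this. Set against the mean of the 8 libraries, genes of the highest eighth had median log2 deviations of 0.25 and 0.23 in the vehicle libraries and -0.24 and -0.25 in the inhibitor libraries. In the lowest eighth the same deviations were -0.13 and -0.08 with vehicle and 0.29 and 0.29 with inhibitor. WT vehicle libraries stayed within 0.10 of 0 in both eighths, whereas the WT inhibitor libraries differed from each other in the highest eighth, at 0.16 and -0.04.

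**Figure D1:**
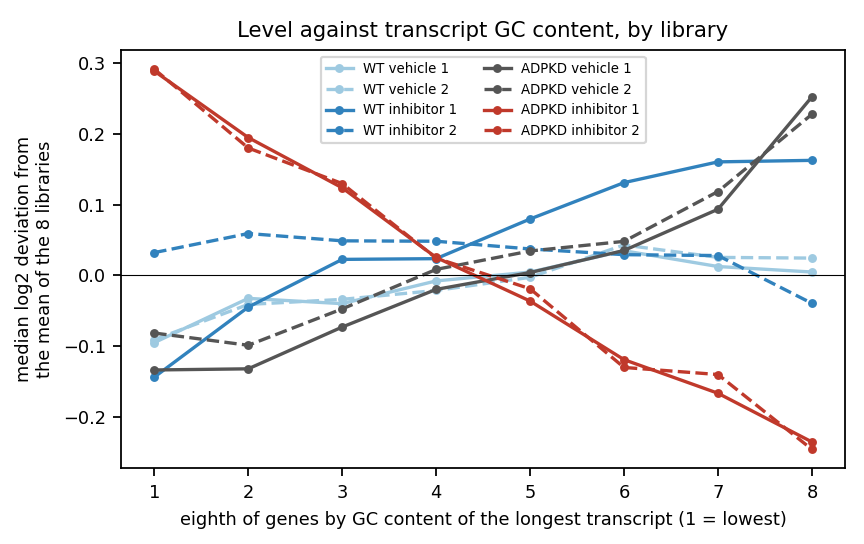
Median log2 deviation of each library from the mean of the 8 libraries (vertical axis) over eighths of the genes ordered by GC content of the longest transcript (horizontal axis); solid lines are replicate 1 and dashed lines replicate 2. The ADPKD inhibitor libraries run from 0.29 down to -0.24 and -0.25, and the ADPKD vehicle libraries rise to 0.25 and 0.23.

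Removing this trend from each library left 6689 calls (38.4%), 3801 higher (21.8%) and 2888 lower (16.6%). Of the uncorrected calls, 3003 higher genes (77.2%) and 2368 lower genes (71.0%) were called with the same sign after removal, and 10 were called with opposite signs. These shared genes made up 79.0% of the higher and 82.0% of the lower calls after removal. Transcript length showed a weaker trend: medians ran from -0.33 on the log2 scale in the shortest eighth (56 to 1149 bases) to 0.27 in the longest. Removal also takes out any response that itself follows GC content, and whether the trend arose in the cells or in library preparation was not tested. Counts for the gene groups below are as counted unless removal of the GC trend is named.

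Among the genes with the largest rises were several of the proximal tubule and of acid-base transport. Kap, an androgen-regulated protein of proximal tubule cells (chromosome 6, 133849851 to 133853762, GRCm38), was at 1.25 and 2.28 CPM with vehicle and 170.0 and 202 CPM with inhibitor (log2 fold change 6.72 ± 0.61, adjusted p = 9.46e-04). That rise left it well under the 4995 and 2724 CPM of vehicle-treated WT libraries. Ugt3a2, a UDP-glycosyltransferase, went from 0.0519 and 0.3800 to 13.8 and 16.2 CPM (log2 fold change 6.09 ± 0.47, adjusted p = 3.78e-05). Slc4a1, the chloride-bicarbonate exchanger AE1 of acid-secreting intercalated cells (chromosome 11, 102348824 to 102366203), went from 0.104 and 0.271 to 10.02 and 14.5 CPM (log2 fold change 5.98 ± 0.39, adjusted p = 2.31e-06). The vehicle libraries held only 1 and 7 counts of Ugt3a2 and 2 and 5 of Slc4a1, so the sizes of these 2 folds are imprecise. The groups did not overlap in Kap, Ugt3a2 or Slc4a1, but that was a condition for choosing them.

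The proton-potassium pump gene Atp12a rose by 4.92 ± 0.59, the collagen gene Col26a1 by 4.31 ± 0.32 and the receptor tyrosine kinase gene Ros1 by 4.26 ± 0.27 on the log2 scale. Ros1 was at 2.39 and 1.36 CPM with vehicle and 31.5 and 40.5 CPM with inhibitor. Mep1a, a brush-border metalloprotease, went from 3.27 and 1.74 to 37.7 and 44.05 CPM (log2 fold change 4.02 ± 0.35, adjusted p = 1.71e-04), and Cyp2j5, a renal epoxygenase, from 1.04 and 1.41 to 16.99 and 22.1 CPM (log2 fold change 3.99 ± 0.22, adjusted p = 3.03e-07). The other genes of this size were less secure: Serpina1f (4.12 ± 0.68) was no longer called without vehicle replicate 1 (adjusted p = 0.0735) or vehicle replicate 2 (adjusted p = 0.0574). Rec8 (4.11 ± 1.11, adjusted p = 0.0405), a meiotic cohesin, stood at 10.3 and 32.2 CPM in the inhibitor libraries and lost its call in 3 of the 4 fits that left out 1 ADPKD library, with the replicate block and with no filter on low counts.

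**Figure D2:**
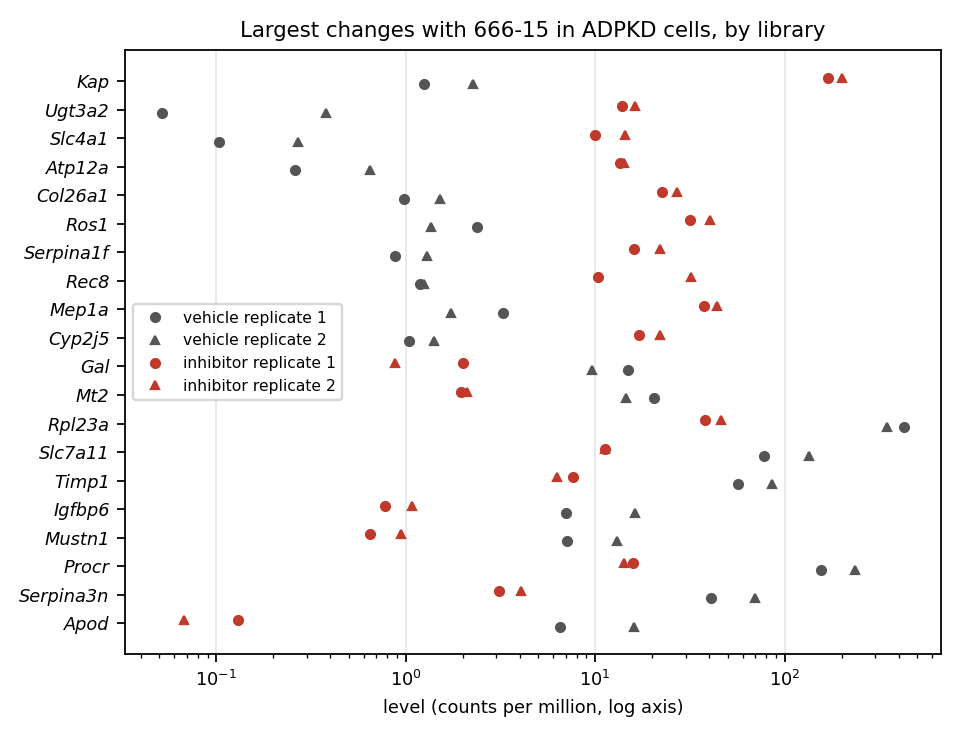
Levels in CPM (log axis) of the 10 rising and 10 falling genes of largest fold change in the 4 ADPKD libraries; grey is vehicle, red is inhibitor, circles are replicate 1 and triangles replicate 2. The colours do not overlap in any of the 20 genes, which was a condition for choosing them. The red points of Rec8 lie widest apart among the rising genes.

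The falling genes of largest fold follow. Apod, the lipid carrier apolipoprotein D (chromosome 16, 31296192 to 31314808), went from 6.54 and 16.1 CPM with vehicle to 0.1302 and 0.0679 CPM with inhibitor (log2 fold change -6.72 ± 0.76, adjusted p = 7.93e-05). Its inhibitor libraries held 2 and 1 counts, against 126 and 296 with vehicle, so the ratio of the pooled CPM, 0.008904, has an exact 95% counting interval from 0.00183 to 0.0262. Serpina3n, an acute-phase inhibitor of serine proteases (chromosome 12, 104406729 to 104414329), went from 41.1 and 70.1 to 3.12 and 4.07 CPM (log2 fold change -3.95 ± 0.30, adjusted p = 3.92e-06), still above the 1.74 and 1.06 CPM of vehicle-treated WT libraries. Timp1, which inhibits matrix metalloproteinases, fell from 56.9 and 85.6 to 7.68 and 6.31 CPM. Procr, the receptor of activated protein C, known from endothelial cells, fell from 155 and 234 to 15.8 and 14.3 CPM (log2 fold change -3.70 ± 0.23, adjusted p = 5.81e-06). The 20 endothelial markers had log2 fold changes from -2.94 to -0.99. In vehicle-treated WT libraries Procr was at 52.8 and 42.8 CPM, while the endothelial markers held 0.241% and 0.209% of counts. The part of endothelial cells in the fall of Procr was not tested. Igfbp6, which binds insulin-like growth factor II, was at -3.64 ± 0.47, the muscle-associated gene Mustn1 at -3.65 ± 0.46, the metal-binding metallothionein gene Mt2 at -3.11 ± 0.41 and the neuropeptide gene Gal at -3.07 ± 0.51, all called. With the GC trend removed all 10 falling genes of largest fold were still called, with log2 fold changes from -6.79 to -2.80.

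Changes also reached the most abundant transcripts. Hmox1, the haem-degrading enzyme heme oxygenase 1 (chromosome 8, 75093621 to 75100589), was at 6246 and 7311 CPM with vehicle and 898 and 1096 CPM with inhibitor (log2 fold change -2.76 ± 0.23, adjusted p = 6.87e-05), lower than the 2285 and 2128 CPM of vehicle-treated WT libraries. Sqstm1, the autophagy receptor p62, went from 9523 and 8727 to 4388 and 4488 CPM (log2 fold change -1.04 ± 0.09, adjusted p = 5.96e-06). Upward, Clu, the secreted chaperone clusterin, went from 4019.9 and 6201 to 11383 and 13966 CPM (log2 fold change 1.31 ± 0.18, adjusted p = 4.50e-04) and Ahnak, a giant membrane scaffold protein, from 2457 and 2169 to 5678 and 5094 CPM (log2 fold change 1.22 ± 0.10, adjusted p = 2.99e-06). All 4 kept their calls with the GC trend removed (-2.58, -0.83, 1.59 and 1.13 in the same order).

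Whether genes that CREB is known to control moved with its inhibitor was asked next. Creb1, which encodes the protein 666-15 is directed against, was at 78.6 and 69.3 CPM with vehicle and 53.04 and 53.96 CPM with inhibitor (log2 fold change -0.47 ± 0.11, adjusted p = 0.00573). That call was lost without vehicle replicate 1 (adjusted p = 0.0552) or inhibitor replicate 1 (adjusted p = 0.0542), and the log2 fold change was -0.86 with the GC trend removed. Of 16 genes of the CREB family, its coactivators and the kinase pathway above it, 5 fell and 1 rose (median -0.10). That is a smaller share than the 41.4% called over all genes. With the GC trend removed 3 fell and 1 rose. The median of this list ran from -0.25 to -0.02 with 1 ADPKD library left out. Gnas, the gene of the stimulatory G protein that activates adenylyl cyclase, went from 126 and 122 to 30.5 and 30.8 CPM (log2 fold change -2.01 ± 0.12, adjusted p = 2.80e-07), with no overlap. Adcy6, an adenylyl cyclase of the collecting duct, rose from 89.1 and 88.9 to 125 and 110.4 CPM (0.40 ± 0.10), a call lost without inhibitor replicate 1 (adjusted p = 0.0664) and after removal of the length trend (0.0758). With the GC trend removed it stood at 0.68.

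Textbook genes induced by cAMP and CREB went both ways. Of 24 tested, 9 fell and 4 rose with a median log2 fold change of -0.27. With the GC trend removed 6 fell and 5 rose, and the median was -0.01. Gadd45b, a stress-response gene, fell from 513 and 501 to 226 and 254 CPM (log2 fold change -1.08 ± 0.09, adjusted p = 4.89e-06), and Egr1, an immediate early transcription factor, from 1091 and 1056 to 641 and 524 CPM (log2 fold change -0.88 ± 0.11, adjusted p = 4.11e-05). In the other direction Fos, a partner of AP-1, rose from 241 and 214 to 552 and 524 CPM (log2 fold change 1.24 ± 0.10, adjusted p = 3.94e-06) and Pde4b, a phosphodiesterase that degrades cyclic AMP, from 292 and 346 to 602 and 677 CPM (log2 fold change 1.0 ± 0.11, adjusted p = 2.13e-05). All 4 were called with the GC trend removed as well, at -0.73, -0.51, 1.36 and 0.82. Another pair of immediate early genes shows how far GC content matters: Junb (-0.68 ± 0.11) and Jund (-1.16 ± 0.12) were called lower as counted, and with the trend removed stood at 0.07 and -0.02, with adjusted p of 0.572 and 0.89. Genes induced by tissue dissociation, which overlap this list, had 6 lower and 4 higher of 20 as counted (median -0.18) and 3 lower and 7 higher with the trend removed (median 0.11).

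Promoters that carry the CRE were read from RefSeq sequence (GRCm38.p6, 250 bases before to 50 after each gene start, with a match for 12056 of the 17440 genes tested). The full element, TGACGTCA on either strand, was in 588 of 32851 promoters (1.79%), and 398 tested genes had it. Of those, 91 rose (22.9%) and 74 fell (18.6%), with a median log2 fold change of -0.0011. Of the 11658 tested genes whose promoter lacks it, 24.9% rose and 19.6% fell, with a median of 0.05. With the GC trend removed the shares were 21.9% and 18.6% with the element and 24.4% and 16.5% without it. The core TGACG, which the full element contains and which was in 20.8% of promoters, gave 24.3% higher and 21.2% lower in the 3982 genes that had it, against 25.1% and 18.8% in the 8074 that did not. Among the 20 textbook genes that matched a promoter, the full element was in 3 (Dusp1, Areg and Btg2) and the core in 16. Counted in the same way, by gene symbol over any of its promoters, they were in 2.03% and 23.0% of all symbols. A match is a description of these letters and not of CREB binding.

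Single genes with the full element moved in either direction, and the 120 bases before the gene start are printed for 3 that rose and 3 that fell, 5′ to 3′ along the gene, with the element in capitals.
Errfi1 (chr4:150854950-150855069, plus strand): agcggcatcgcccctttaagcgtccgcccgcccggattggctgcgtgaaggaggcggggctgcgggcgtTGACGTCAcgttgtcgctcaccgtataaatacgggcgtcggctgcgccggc
Stxbp3 (chr3:108840503-108840622, minus strand): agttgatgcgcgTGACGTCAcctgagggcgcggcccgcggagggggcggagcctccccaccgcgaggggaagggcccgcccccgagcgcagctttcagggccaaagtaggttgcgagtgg
Tubb2a (chr13:34078009-34078128, minus strand): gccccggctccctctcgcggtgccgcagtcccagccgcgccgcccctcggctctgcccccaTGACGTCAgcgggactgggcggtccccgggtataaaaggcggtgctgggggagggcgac
Rpl27a (chr7:109519075-109519194, plus strand): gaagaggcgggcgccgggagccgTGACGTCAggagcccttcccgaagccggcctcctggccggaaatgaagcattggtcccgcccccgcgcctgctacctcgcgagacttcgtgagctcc
Olfm2 (chr9:20727004-20727123, minus strand): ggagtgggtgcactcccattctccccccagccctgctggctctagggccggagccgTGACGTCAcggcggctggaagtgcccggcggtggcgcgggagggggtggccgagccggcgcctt
Has1 (chr17:17855189-17855308, minus strand): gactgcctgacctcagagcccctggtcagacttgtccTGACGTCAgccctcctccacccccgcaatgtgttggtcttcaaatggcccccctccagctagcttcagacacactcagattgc
The element begins 51 bases before the start of Errfi1, 108 before Stxbp3, 59 before Tubb2a, 97 before Rpl27a, 64 before Olfm2 and 83 before Has1. Errfi1, a feedback inhibitor of the EGF receptor, rose from 812 and 829.8 to 1513 and 1603 CPM (log2 fold change 0.92 ± 0.09, adjusted p = 9.96e-06). Stxbp3, which controls vesicle fusion, was at 1.13 ± 0.13 and the tubulin gene Tubb2a at 1.09 ± 0.13, both higher. Has1, a hyaluronan synthase, fell from 46.4 and 66.8 to 14.3 and 12.8 CPM (log2 fold change -2.06 ± 0.19, adjusted p = 6.69e-06). Olfm2, which encodes a secreted olfactomedin, fell from 64.7 and 40.4 to 8.13 and 7.398 CPM (log2 fold change -2.76 ± 0.23, adjusted p = 3.82e-06). The ribosomal protein gene Rpl27a (-1.36 ± 0.11) also fell. Of the other genes of this kind, Zfand2a, a zinc finger gene induced by proteotoxic stress, went from 933 and 822 to 357 and 308 CPM and Cdc42, a small GTPase of cell polarity, from 299 and 298 to 487 and 523 CPM. All these genes kept their calls with the GC trend removed, Cdc42 at 0.44 in place of 0.76.

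Genes of the antioxidant response governed by NRF2 were lower as a group. Of 15 tested, 12 fell and 0 rose (median log2 fold change -0.97), and 12 fell and 0 rose with the GC trend removed (median -0.84). Together they held 1.18% and 1.34% of counts with vehicle and 0.390% and 0.427% with inhibitor, much of it Hmox1. Osgin1, an oxidative stress-induced growth inhibitor, went from 449 and 462 to 64.8 and 56.4 CPM (log2 fold change -2.91 ± 0.11, adjusted p = 1.82e-08). Gclm, the modifier subunit of the enzyme that begins glutathione synthesis, went from 316 and 359 to 121 and 123 CPM (log2 fold change -1.47 ± 0.11, adjusted p = 1.42e-06). Nqo1, a quinone reductase, fell from 27.3 and 31.7 to 8.72 and 10.6 CPM, and Taldo1, an enzyme of the pentose phosphate pathway, from 322 and 331 to 155 and 164 CPM. Srxn1 (-0.90 ± 0.10) and Txnrd1 (-0.86 ± 0.12), which restore oxidised peroxiredoxins and thioredoxins, fell too. The mRNA of NRF2 itself, Nfe2l2, was at 333 and 345 CPM with vehicle and 325 and 377 CPM with inhibitor (log2 fold change 0.05 ± 0.11, adjusted p = 0.746). A core antioxidant response element (TGACNNNGC, either strand) was in 12.4% of single promoters. Counted by gene symbol over any of its promoters, it was in 14.0% of all symbols. By the same count it was in 6 of the 12 members that matched the RefSeq table: Nfe2l2, Gclm, Srxn1, Txnrd1, G6pdx and Me1.

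The integrated stress response followed the same direction. Of 18 genes induced by the transcription factor ATF4, 15 fell and 0 rose (median -0.89), and 13 fell and 0 rose with the GC trend removed (median -0.58). Slc7a11, the cystine-glutamate exchanger that belongs to both this list and the NRF2 list, went from 78.02 and 134 to 11.3 and 11.3 CPM (log2 fold change -3.23 ± 0.49, adjusted p = 0.00335). Its partner subunit Slc3a2 went from 899 and 954 to 415 and 456 CPM (log2 fold change -1.09 ± 0.10, adjusted p = 5.30e-06). The transcription factor genes Atf5 (-2.15 ± 0.18) and Ddit3 (-1.47 ± 0.13), the latter the stress factor CHOP, and Trib3 (-1.19 ± 0.11), a pseudokinase, fell as well. With the GC trend removed Trib3 stood at -0.76, and with GC and length trends removed Atf5 stood at -1.43. Ddit3 was at 131 and 119 CPM with vehicle and 42.9 and 47.6 CPM with inhibitor. Of 18 chaperones of the endoplasmic reticulum 4 fell and 2 rose, a smaller share than the 41.4% called over all genes, and 2 fell and 1 rose with the GC trend removed. Only 1 fell without vehicle replicate 1 or inhibitor replicate 1, and 0 rose without vehicle replicate 2 or inhibitor replicate 2. Hspa5, the main chaperone of that compartment, went from 1637 and 1382 to 1016 and 1003 CPM (log2 fold change -0.58 ± 0.16, adjusted p = 0.013), a call lost in 3 of the 4 fits without 1 library (adjusted p = 0.0819 to 0.0942). Of 15 heat shock genes 5 fell and 2 rose, a share called near the 41.4% over all genes. With the GC trend removed 6 fell and 1 rose. The heat shock median was -0.25, and ran from -0.23 to -0.12 with 1 ADPKD library left out. The small heat shock protein gene Hspb1 went from 516 and 624 to 129.9 and 113 CPM, with an adjusted p of 0.00566 that became 0.0507 without inhibitor replicate 2. Its log2 fold change of -2.23 was -1.35 with the GC and length trends removed.

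Targets of p53, many of which arrest or kill cells, fell more often than they rose. Of 20 tested, 11 fell and 2 rose (median -0.48), with the same counts after removal of the GC trend (median -0.38). Cdkn1a, the cell cycle inhibitor p21, went from 1338 and 1165 to 454 and 437 CPM (log2 fold change -1.49 ± 0.10, adjusted p = 9.70e-07), with 326 and 315 CPM in vehicle-treated WT libraries. The pro-apoptotic genes Bbc3 and Bax went from 80.8 and 58.6 to 12.4 and 8.55 CPM and from 92.5 and 92.1 to 29.03 and 27.6 CPM. Their log2 fold changes of -2.73 and -1.71 became -1.75 and -0.87 with the GC trend removed, and both remained called. Gadd45a, a growth arrest gene, was at -0.92 ± 0.09. The members that rose were Fas, a death receptor (1.08 ± 0.29), and Sesn1, a stress-induced regulator of mTOR (0.76 ± 0.20), and neither was called higher without inhibitor replicate 2.

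Proliferation genes rose from low levels. Of 24 mitotic genes 19 rose and 0 fell (median 1.75), 17 rose with the GC trend removed (median 1.78), and 12 rose without vehicle replicate 1. Top2a, the topoisomerase that untangles chromosomes, went from 3.89 and 2.93 to 24.01 and 23.7 CPM (log2 fold change 2.80 ± 0.36, adjusted p = 1.83e-04). Anln, a scaffold of the cleavage furrow, went from 6.28 and 8.09 to 33.00 and 31.4 CPM (log2 fold change 2.16 ± 0.28, adjusted p = 1.13e-04), and Kif11, the spindle motor, from 1.71 and 1.85 to 11.5 and 9.57 CPM (log2 fold change 2.56 ± 0.36, adjusted p = 1.22e-04). Ect2, an activator of cytokinesis, was at 1.79 ± 0.20. Of 20 DNA replication genes 10 rose and 1 fell (median 0.66, and 0.57 with the GC trend removed). The ribonucleotide reductase gene Rrm1 went from 18.3 and 16.01 to 46.9 and 42.1 CPM, DNA ligase 1 (Lig1) from 10.4 and 8.31 to 25.6 and 24.8 CPM, and the polymerase genes Pola1 and Pole were at 1.66 ± 0.27 and 2.16 ± 0.36. The mitotic genes together held 0.0142% and 0.0125% of counts with vehicle and 0.0306% and 0.0288% with inhibitor.

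Genes of cytosolic ribosomal proteins fell almost throughout. Of 79 tested 71 fell and 0 rose, median log2 fold change -0.89, and their share of all counts went from 4.24% and 3.68% to 2.1% and 2.34%. With the GC trend removed 69 fell and 2 rose (median -0.74), and with the GC and length trends removed 65 fell and 3 rose (median -0.62). Rps19 went from 664 and 561 to 171 and 177 CPM (log2 fold change -1.81 ± 0.11, adjusted p = 2.99e-07) and Rpl28 from 488 and 452 to 121 and 143 CPM (log2 fold change -1.83 ± 0.12, adjusted p = 7.17e-07). Rpl23a stood apart at 426 and 347 CPM with vehicle and 37.9 and 46.4 CPM with inhibitor (log2 fold change -3.20 ± 0.20, adjusted p = 5.47e-06), followed by Rps28 at -2.24. Reads can be shared with the many processed pseudogenes of this family, so single members are uncertain. Of 23 ribosome biogenesis genes 9 fell and 1 rose (median -0.27), a share called near the 41.4% over all genes. With the GC trend removed 7 fell. Among them were the nucleolar methyltransferase gene Fbl (-0.61 ± 0.12 as counted) and its partner Nop56 (-0.60 ± 0.11 as counted). The biogenesis list had 4 lower and 4 higher without vehicle replicate 2, and 4 lower without inhibitor replicate 1. Ribosomal proteins of mitochondria had 10 lower and 4 higher of 29 as counted, a share called near the 41.4% over all genes. With the GC trend removed there were 6 of each. Their median of -0.17 ran from -0.22 to -0.03 with 1 ADPKD library left out.

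**Figure D3:**
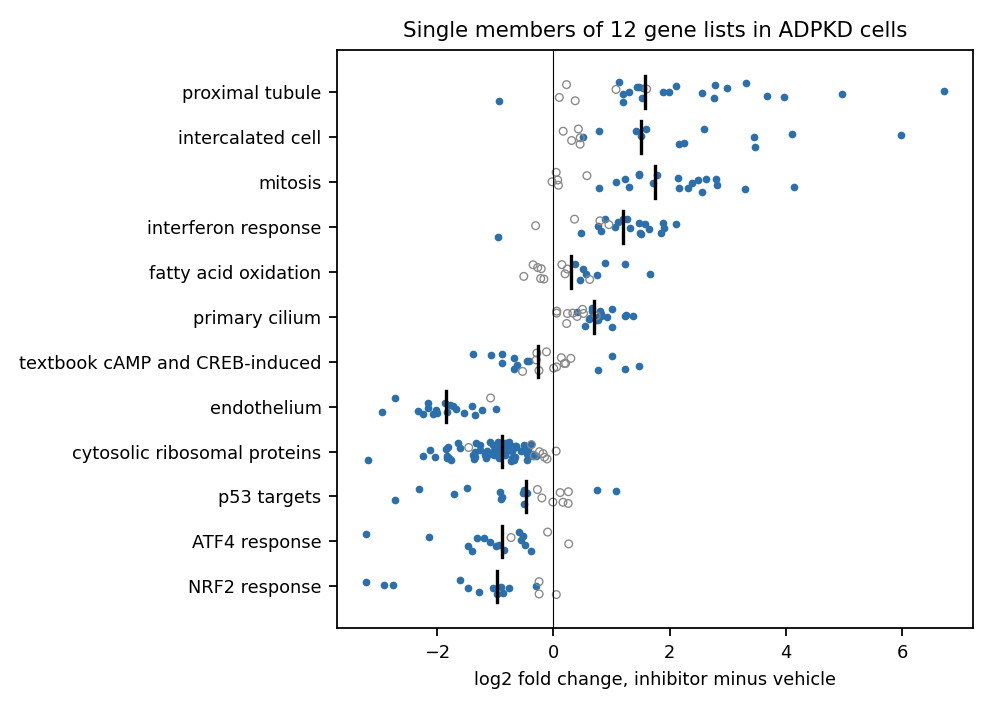
Log2 fold change (inhibitor minus vehicle, horizontal axis) of each tested member of 12 gene lists; filled blue points were called at an adjusted p below 0.05, open grey points were not, and black bars are medians. Endothelial, ribosomal, NRF2 and ATF4 genes lie mostly left of 0 and tubule, mitotic, interferon and cilium genes mostly right of it, while textbook CREB targets spread over both sides.

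Markers of the nephron were mostly higher. Of 26 proximal tubule markers 20 rose and 1 fell (median 1.58), and 20 rose and 0 fell with the GC trend removed (median 1.77). Slc34a1, the sodium-phosphate cotransporter of the brush border, went from 4.46 and 3.91 to 41.4 and 41.9 CPM (log2 fold change 3.31 ± 0.13, adjusted p = 1.82e-08), and Slc13a1, a sulfate transporter, from 5.14 and 6.57 to 20.6 and 26.1 CPM (log2 fold change 1.99 ± 0.15, adjusted p = 1.74e-06). The libraries of vehicle-treated WT cells held 3501 and 3967 CPM of Slc34a1 and 265 and 272 CPM of Slc13a1. Aqp1, a water channel also made by endothelium, was the member that fell (-0.94 ± 0.26, adjusted p = 0.0289), a call lost when the GC trend was taken out (adjusted p = 0.0985) and in 5 other settings. Of 12 thick ascending limb markers 7 rose and 1 fell (median 1.01), with 7 and 0 after removal. Kcnj1, the apical potassium channel ROMK, went from 6.796 and 8.903 to 25.6 and 34.8 CPM and Sorl1, a sorting receptor, from 151 and 146 to 352 and 339 CPM. Of 12 markers of the distal convoluted and connecting tubule 9 rose and 1 fell (median 1.09, and 1.16 with the GC trend removed). Trpv5, the apical calcium channel, was at 65.4 and 65.6 CPM with vehicle and 245 and 246 CPM with inhibitor (log2 fold change 1.91 ± 0.10, adjusted p = 2.07e-07), above the 54.04 and 49.7 CPM of vehicle-treated WT libraries, and Kl, the FGF23 coreceptor Klotho, went from 13.95 and 14.1 to 73.6 and 84.3 CPM.

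In the collecting duct both main cell types had higher markers. Of 13 principal cell markers tested 8 rose and 1 fell (median 0.86), and 8 rose and 0 fell with the GC trend removed (median 1.13). Hsd11b2, which protects the mineralocorticoid receptor from glucocorticoids, went from 107 and 127 to 486 and 550.3 CPM (log2 fold change 2.14 ± 0.15, adjusted p = 3.44e-06). The receptor's own gene, Nr3c2, went from 7.52 and 9.88 to 36.2 and 43.9 CPM (log2 fold change 2.20 ± 0.20, adjusted p = 7.87e-06) and Tfcp2l1, a transcription factor of the collecting duct, from 137 and 164 to 369.8 and 359.6 CPM. Of 17 intercalated cell markers 12 rose and 0 fell (median 1.52), 13 rose with the GC trend removed (median 1.72) and 8 rose without inhibitor replicate 2. Aqp6, a channel of intracellular vesicles in these cells, went from 13.2 and 11.6 to 122 and 150.0 CPM (log2 fold change 3.46 ± 0.15, adjusted p = 6.21e-08), and Foxi1, the transcription factor that specifies them, from 12.6 and 20.4 to 41.3 and 57.8 CPM (log2 fold change 1.59 ± 0.22, adjusted p = 2.73e-04). Esrrg, a nuclear receptor of mitochondrial metabolism, rose from 32.1 and 22.7 to 87.6 and 91.4 CPM (log2 fold change 1.70 ± 0.22, adjusted p = 2.55e-04). Irx1, a homeobox gene, fell from 16.8 and 13.2 to 3.25 and 3.94 CPM (-2.06 ± 0.25, and -1.36 with the GC and length trends removed). Of the 19 nephron transcription factors tested 7 rose and 5 fell, and 8 rose and 3 fell with the GC trend removed; 2 fell without either inhibitor replicate.

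Markers of cells outside the tubule went the other way or did not move as a group. Of 20 endothelial markers 19 fell and 0 rose, both as counted (median -1.85) and with the GC trend removed (median -1.69). Pecam1, the adhesion protein CD31, went from 232 and 270.1 to 81.8 and 64.1 CPM, Flt1, a VEGF receptor, from 168 and 214 to 63.97 and 55.6 CPM, and Nos3, the endothelial nitric oxide synthase, from 44.2 and 51.3 to 7.48 and 4.89 CPM. Of 12 stromal markers 6 fell and 0 rose (median -0.83), 5 fell with the GC trend removed and 1 without inhibitor replicate 2. Pdgfrb, a receptor of pericytes, went from 43.7 and 59.99 to 15.6 and 12.4 CPM (log2 fold change -1.89 ± 0.34, adjusted p = 0.00447). Macrophage markers split, with 3 higher and 3 lower of 17 as counted and 3 higher and 1 lower with the GC trend removed (1 to 3 higher and 0 to 3 lower with 1 library left out). Podocyte markers had 4 lower and 2 higher of 11 in both settings (1 to 3 lower with 1 library left out). Haemoglobin and other erythroid markers were at most 4.78 CPM in any ADPKD library, and 1 of 5 was called, lower. Of 7 urothelial markers 1 rose and 1 fell, and 0 were called with the GC trend removed. Of the 6 lymphocyte and neutrophil markers tested none was called, 2 of the 10 listed had no count in any ADPKD library, and the list held at most 0.000434% of counts.

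**Figure D4:**
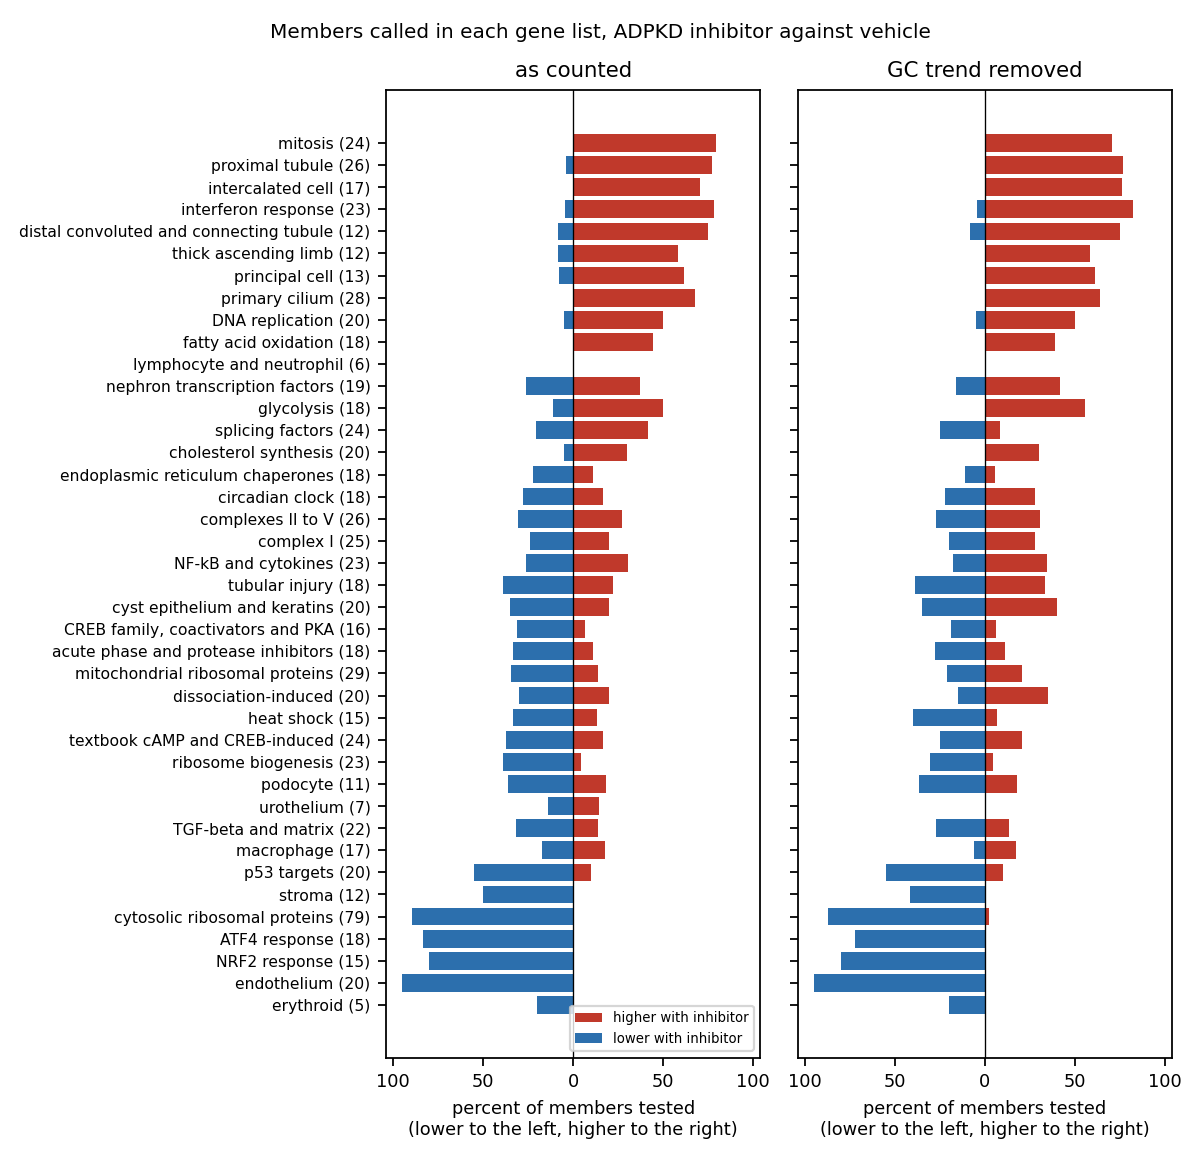
Percent of the tested members of each of 40 gene lists (number tested in brackets) that were called higher (red, to the right) or lower (blue, to the left) with the inhibitor, as counted in the left panel and with the GC trend removed in the right panel. Splicing factors, dissociation-induced genes and cyst epithelium genes change balance between the panels, while ribosomal, endothelial, NRF2, mitotic and cilium genes do not.

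Genes of the primary cilium, the sensory organelle whose defects cause cystic kidneys, were higher. Of 28 tested 19 rose and 0 fell (median 0.70), 18 rose with the GC trend removed (median 0.52), and 12 rose without inhibitor replicate 2. Dync2h1, the motor of retrograde transport, went from 17.3 and 14.98 to 45.2 and 38.1 CPM (log2 fold change 1.37 ± 0.20, adjusted p = 2.96e-04), which was 0.88 with the GC and length trends removed. Arl13b, a GTPase of the ciliary membrane, was at 0.92 ± 0.16 and 0.61 with the GC trend removed. Pkd1, the gene mutated in most families with the human disease, was at 73.6 and 70.3 CPM with vehicle and 48.9 and 38.5 CPM with inhibitor (log2 fold change -0.72 ± 0.15, adjusted p = 0.00269). Removal of the GC trend gave -0.37 (adjusted p = 0.0449). Without inhibitor replicate 2 the log2 fold change of Pkd1 was -0.54, and the call was narrowly lost. Pkd2 was at 190.0 and 166 CPM with vehicle and 216 and 210.5 CPM with inhibitor (log2 fold change 0.26 ± 0.10, adjusted p = 0.0652), a difference that passed without vehicle replicate 1 (adjusted p = 0.0488) and with no filter on low counts (adjusted p = 0.0369). Cftr, the chloride channel of cyst fluid secretion, stood at 1.04 and 4.72 CPM with vehicle and rose to 36.8 and 37.2 CPM with inhibitor (log2 fold change 3.69 ± 0.58, adjusted p = 0.00389), with 45.6 and 49.3 CPM in vehicle-treated WT libraries.

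Interferon-stimulated genes rose. Of 23 tested 18 rose and 1 fell (median 1.21), and 19 rose and 1 fell with the GC trend removed (median 1.06). Parp14, an ADP-ribosyltransferase, went from 26.4 and 25.1 to 81.8 and 79.7 CPM (log2 fold change 1.65 ± 0.11, adjusted p = 6.75e-07), and Gbp2, a guanylate-binding defence protein, from 22.1 and 24.3 to 59.9 and 71.3 CPM (log2 fold change 1.5 ± 0.14, adjusted p = 9.89e-06). Ddx58, the RNA sensor RIG-I, was at 1.21 ± 0.11 and Oasl2 at 1.91 ± 0.21. Isg15, a ubiquitin-like modifier and the member that fell, went from 14.8 and 17.05 to 7.29 and 9.23 CPM (log2 fold change -0.95 ± 0.24, adjusted p = 0.0077), a call lost after removal of the length trend (adjusted p = 0.0674) and without inhibitor replicate 1 (adjusted p = 0.0904). The interferon-stimulated response element, searched as GAAA and GAAA with 2 bases between them on both strands, was in 3.44% of single promoters. Counted by gene symbol over any of its promoters, the element was in 3.99% of all symbols. By the same count it was in 11 of the 17 members that matched the table, Isg15 among them. The 120 bases before the start of Gbp2 show it, in capitals and in the reverse orientation.
Gbp2 (chr3:142620543-142620662, plus strand): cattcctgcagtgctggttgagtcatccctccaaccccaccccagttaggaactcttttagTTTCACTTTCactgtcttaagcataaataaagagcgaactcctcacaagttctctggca
This stretch lies on the gene's strand, with the element beginning 59 bases before the start.

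Inflammatory genes did not share 1 direction. Of 23 NF-kB targets and cytokines 7 rose and 6 fell (median -0.03), 8 rose and 4 fell with the GC trend removed (median 0.04), and with 1 library left out the counts ran from 4 to 10 higher and from 2 to 8 lower. Csf1, the growth factor of macrophages, fell from 1075 and 972 to 409 and 401 CPM (log2 fold change -1.34 ± 0.10, adjusted p = 2.19e-06), while Il1a, an alarmin cytokine, rose from 1.14 and 2.01 to 9.11 and 14.3 CPM (log2 fold change 2.89 ± 0.37, adjusted p = 7.43e-05). Tnfaip3, which restrains NF-kB signalling, rose by 0.88 ± 0.12. Of 18 acute-phase and protease inhibitor genes 6 fell and 2 rose (median -0.14), a share called near the 41.4% over all genes. With the GC trend removed 5 fell and 2 rose. Saa3, serum amyloid A3, fell from 3.89 and 4.56 to 0.195 and 0.204 CPM and Serpina3g, an inhibitor of cathepsins, rose from 4.57 and 6.297 to 16.5 and 17.1 CPM. Matrix genes of the TGF-beta response fell in 7 of 22 cases and rose in 3, a share called near the 41.4% over all genes. Their median of -0.45 was -0.19 with the GC trend removed, and ran from -0.70 to -0.16 with 1 ADPKD library left out. Itga5, the fibronectin receptor subunit, went from 359.6 and 332 to 122 and 113 CPM (log2 fold change -1.56 ± 0.13, adjusted p = 5.18e-06) and Mmp2, a gelatinase, from 38.3 and 37.2 to 13.5 and 10.9 CPM.

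Genes of injured tubules and of cyst epithelium were likewise divided. Of 18 tubular injury genes 7 fell and 4 rose as counted, and 7 fell and 6 rose with the GC trend removed. The lowest log2 fold changes of this list were those of Krt20 (-1.90) and Cdkn1a (-1.49). Havcr1, the injury marker KIM-1, rose from 12.7 and 12.4 to 30.4 and 37.6 CPM (log2 fold change 1.44 ± 0.20, adjusted p = 1.21e-04) and Prom1, a membrane protein of progenitor-like cells, from 205 and 181 to 442 and 457 CPM. Of 20 cyst epithelium and keratin genes 7 fell and 4 rose as counted (median -0.07), and 7 fell and 8 rose with the GC trend removed (median 0.21). Wnt7a, a secreted Wnt ligand, fell from 249 and 203 to 87.3 and 79.8 CPM (log2 fold change -1.44 ± 0.12, adjusted p = 6.69e-06), with 0 counts in both vehicle-treated WT libraries, and Krt17, a stress keratin, from 48.4 and 35.1 to 8.13 and 9.77 CPM (log2 fold change -2.22 ± 0.22, adjusted p = 1.11e-05). Klf5, a transcription factor of proliferating epithelium, rose from 269 and 261 to 519.8 and 556 CPM (log2 fold change 1.02 ± 0.11, adjusted p = 1.91e-05), and the mucin gene Muc20 from 51.6 and 47.6 to 106 and 121 CPM.

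Of 18 fatty acid oxidation genes 8 rose and 0 fell (median 0.31, and 0.24 with the GC trend removed). The share called was near the 41.4% over all genes. Hadh, a mitochondrial dehydrogenase of the pathway, went from 26.7 and 25.9 to 54.5 and 69.6 CPM (log2 fold change 1.24 ± 0.13, adjusted p = 1.93e-05) and Decr1, a reductase for unsaturated fatty acids, from 7.52 and 12.9 to 31.2 and 33.4 CPM (log2 fold change 1.66 ± 0.20, adjusted p = 5.99e-05), and vehicle-treated WT libraries held 305 and 286 CPM of Hadh and 87.8 and 88.4 CPM of Decr1. Of 18 glycolytic genes 9 rose and 2 fell (median 0.23), and 10 rose and 0 fell with the GC trend removed. With 1 library left out 5 to 8 rose and 0 fell. The lactate dehydrogenase gene Ldhb went from 215 and 205 to 589.6 and 702 CPM (log2 fold change 1.62 ± 0.11, adjusted p = 8.90e-07). Among nuclear genes of the respiratory chain 5 rose and 6 fell of 25 in complex I, shares close to the 22.3% higher and 19.1% lower over all genes. In complexes II to V 7 rose and 8 fell of 26. The balance moved with the trends: 7 rose and 5 fell in complex I and 8 rose and 7 fell in complexes II to V with the GC trend removed, and 8 rose and 4 fell and 12 rose and 4 fell with the GC and length trends removed. With 1 library left out 2 to 5 rose and 2 to 5 fell in complex I, and 3 to 7 rose and 5 to 8 fell in complexes II to V. Cox6a1, a subunit of cytochrome c oxidase, fell by 0.91 as counted and was at -0.14 with the GC trend removed and at 0.18 with the GC and length trends removed, neither of them called. Cox5a, of the same complex, fell in both settings (-1.10 ± 0.13, and -1.45 with the GC trend removed). The 37 mitochondrially encoded genes were listed with 0 counts throughout and could not be assessed.

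Whether the inhibitor acted in the same way without the disease was tested as the difference of its effects between ADPKD and WT cells. That difference was called for 4636 genes (26.6%). The genes below were chosen for their large fold in ADPKD cells. That fold is part of the difference, so large differences of the same sign were favoured. Slc4a1 rose in both genotypes, by a larger fold but to a lower level in ADPKD cells (10.02 and 14.5 CPM). In WT cells it went from 54.2 and 70.2 to 175 and 212 CPM. The difference of the log2 fold changes was 4.35 ± 0.48, adjusted p = 1.28e-04. The ADPKD vehicle libraries held only 2 and 5 counts of Slc4a1, so its fold there is imprecise. Kap stood at 4995 and 2724 CPM with vehicle and 2327 and 1322 CPM with inhibitor in WT cells, so that its difference was 7.80 ± 0.75, adjusted p = 0.00209. Ugt3a2 fell in WT cells from 445 and 292 to 121 and 109 CPM while it rose in ADPKD cells (difference 7.77 ± 0.52, adjusted p = 3.99e-05). With 1 and 7 counts of Ugt3a2 in the ADPKD vehicle libraries, the size of that difference is imprecise as well. In WT cells the proximal tubule markers, Kap among them, went from 2.30% and 2.01% of counts with vehicle to 0.831% and 0.850% with inhibitor. The part of that shift in these differences was not tested. Among the falling genes the difference was -3.58 ± 0.55, adjusted p = 7.49e-04 for Serpina3n and -2.05 ± 0.32, adjusted p = 0.00152 for Procr, which also fell in WT cells. Apod, with 0 counts in 3 of the 4 WT libraries, gave no called difference (adjusted p = 0.927). The WT inhibitor libraries differed in sex, with 17688 counts of Xist and 0 of Ddx3y in replicate 2.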

How the data were processed

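RNA-seq libraries of DBA-positive kidney cells were oligo-dT selected, per the labels' protocols, which also mention whole kidney. Raw read counts per gene were deposited by the authors; HISAT2 2.1.0, featureCounts 1.6.0 and build mm10 are named in the submitters' processing notes. The sources used here give no annotation release, strandedness or rule for multiply mapping reads.

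Counts were fitted in edgeR 4.0.16 (R 4.3.3): TMM scaling, filterByExpr (min.count 10, min.total.count 15), and a robust quasi-likelihood model over all 8 libraries in 4 groups with 4 residual degrees of freedom. Tests were two-sided with Benjamini-Hochberg adjustment at 0.05. In a simulation on 16813 genes, 66 were changed 1.5-fold, 64 were changed 2-fold and 65 were changed 4-fold. Of these 33.3%, 62.5% and 87.7% were recovered, and 6.30% of calls were false. Its spread followed the trend with level and not each gene's own value, and it held no GC trend. Far fewer genes changed in it than the 7224 called here, so its rates may not carry over. GENCODE M21 gave transcript GC content and length for 17252 tested genes, and their trends were removed per library by lowess (span 0.3). The alternatives were RLE scaling, other filters, no robust option, the 4 ADPKD libraries alone, the replicate block, DESeq2 1.42.0, a 2-fold minimum and each ADPKD library left out. Deviations of same-numbered libraries from their group mean hardly correlated between groups (r from -0.0371 to 0.0806 over 11199 genes). Such values cannot show whether the numbers pair the libraries. Figures used matplotlib 3.10.9.

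The genes named are the 10 rising and 10 falling of largest log2 fold change among called, non-overlapping genes whose mean reached 5 CPM, up to 4 members of each of 40 lists with the smallest p, the 5 rising and 5 falling genes of smallest p with a CRE, and Creb1, Pkd1 and Pkd2. Hmox1, Sqstm1, Clu, Ahnak, Cftr, Isg15, Aqp1, Srxn1, Txnrd1, Nfe2l2, Cdh1, Aqp2, Pecam1, Fas, Sesn1, Rps28, Dusp1, Areg and Btg2 were named after their values were seen. Some genes that the rule names are not reported here. The comparison and the lists were chosen with earlier results of these data known.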

Additional observations from a re-analysis of the deposited data

Results flagged for a closer look

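Inhibitor effects that differed between ADPKD and WT cells, by the test of the difference itself, are given here for the 3 rising and 3 falling genes of largest fold in ADPKD cells, as log2 differences of effects. The fold used to choose these genes is part of the difference, so large differences of the same sign were favoured. Kap (7.80), Ugt3a2 (7.77) and Slc4a1 (4.35) had higher effects in ADPKD cells, and Serpina3n (-3.58) and Procr (-2.05) lower ones. Counts of Ugt3a2 and Slc4a1 were very low in the ADPKD vehicle libraries, so the sizes of their differences are imprecise. For Apod the difference was not called. Over all genes 4636 differences were called, 2377 higher and 2259 lower in ADPKD cells, and 3073 without inhibitor-treated ADPKD replicate 2. The WT inhibitor libraries differed in sex, and the part of sex in these differences was not tested.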

How the results depend on the processing

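The number of called genes was 7224, and ranged from 6248 to 7422 over RLE scaling, other filters, no robust option, the 4 ADPKD libraries alone, removed trends and DESeq2. It was 3218 at a minimum of 2-fold and 4783 to 6291 with 1 ADPKD library left out. With the replicate number as a block it was 7198, and the difference between genotypes was called for 4599 genes. The sources used here do not say whether the numbers pair the libraries. The share of calls that were lower (46.1%) was 52.2% at 2-fold, 43.7% with no filter on low counts, 50.8% with a filter of 5 CPM, 50.1% with the 4 ADPKD libraries alone, 43.2% with the GC trend removed and 40.2% to 45.2% with 1 library left out. The difference of inhibitor effects was called for 4636 genes, 2570 at 2-fold and 3073 to 4278 with 1 library left out. The direction reversed for Junb, to 0.073 with the GC trend removed and 0.12 with the GC and length trends removed, and with both removed for Jund (0.031) and Cox6a1 (0.18), none of them called. Genes that were not called as counted also changed sign, and were not called there either: Aqp2 was at 0.58 with the GC trend removed, 0.65 with both removed and from -0.55 to 0.054 with 1 library left out. Nfe2l2 was at -0.031 with the filter of 5 CPM, -0.083 with the GC trend removed, -0.073 with both removed and from -0.050 to 0.17 with 1 library left out. Ddx3y was at -0.33 with the GC trend removed, -0.00092 with the length trend removed and -0.41 with both removed. The cause was not tested. Of the other values computed for named genes under the alternatives, 94 kept their direction but were no longer past the threshold, 10 passed it newly and 2654 were unchanged in both. Fits without 1 library leave a group with 1 sample, which is assumed to vary like the other groups.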

Other observations

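Of 18 clock genes 5 fell and 3 rose as counted, a share near the 41.4% called over all genes, and 4 fell and 5 rose with the GC trend removed (2 fell without inhibitor replicate 2). Arntl, which drives the clock, went from 74.2 and 72.9 to 29.1 and 31.6 CPM (log2 fold change -1.28 ± 0.27, adjusted p = 0.00533, and adjusted p = 0.0554 without inhibitor replicate 1), and Nr1d2, which represses it, from 69.7 and 85.4 to 215 and 216 CPM (log2 fold change 1.48 ± 0.13, adjusted p = 5.41e-06). Per2, another repressor of the clock, rose by 1.01 ± 0.15. The time of day of collection was not given in the sources used here. Of 20 cholesterol synthesis genes 6 rose and 1 fell as counted, a smaller share than the 41.4% called over all genes. With the GC trend removed 6 rose and 0 fell. The median of 0.12 became 0.30 without vehicle replicate 1 and -0.01 without vehicle replicate 2. Sc5d, a late enzyme of the pathway, went from 60.7 and 50.9 to 107 and 108 CPM (0.94 ± 0.11, and 0.54 with the GC and length trends removed). Splicing factors had 10 higher and 5 lower of 24 as counted and 2 higher and 6 lower with the GC trend removed, and the 5 lower as counted became 1 or 2 with 1 ADPKD library left out.

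By annotated class, 3655 of 14350 protein-coding genes rose and 2867 fell, with a median log2 fold change of 0.05. Long intergenic noncoding RNAs had 30 higher and 68 lower of 401 (median -0.24, and -0.34 with the GC trend removed). Antisense RNAs had 32 higher and 73 lower of 579. In both classes these shares were smaller than the 22.3% higher and 19.1% lower over all genes. Of 67 noncoding RNAs from bidirectional promoters 16 fell and 0 rose, with a median of -0.65. Processed pseudogenes, which can share reads with their parent genes, had 64 higher and 160 lower of 745. For bidirectional-promoter RNAs and processed pseudogenes the lower share was above the 19.1% over all genes. Their share called in either direction was below the 41.4% over all genes. Strandedness of the counting was not given, so reads of an antisense RNA and of its partner gene cannot be told apart.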
